A study of Mus musculus with 32 samples.

Results

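The response of the liver to fasting was examined in wild-type (WT) mice on a high-fat diet. All liver samples labelled WT, high-fat diet and fasted were set against all those labelled WT, high-fat diet and fed, which gave 8 of the 32 samples of the series, with 4 mice per group. The series holds liver RNA of WT mice and of mice that lack Acadm, the gene of medium-chain acyl-CoA dehydrogenase (MCAD), on low-fat or high-fat diet and in the fed or fasted state. The 8 mice were male C57BL/6J mice with an intact Acadm gene and had eaten a semisynthetic high-fat diet, based on palm oil according to the methods of the study, for 6 weeks. The fasted mice then had no food for 16 h, while the fed mice kept the diet over these hours. The labels give ages of 8.5 to 13.5 for the fasted and 9 to 11 for the fed mice, without a unit. They place fasted mice 1 and 2 and fed mice 1, 2 and 3 on sequencing lane 7, and fasted mice 3 and 4 and fed mouse 4 on lane 8.

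In fasting, the liver takes up fatty acids released by adipose tissue, oxidizes them in mitochondria and peroxisomes and exports part of the carbon as ketone bodies. The nuclear receptor PPARα, which binds fatty acids, drives many of the genes involved, whereas insulin and the SREBP transcription factors drive the synthesis of fatty acids and cholesterol in the fed state. A liver on a high-fat diet receives much fatty acid already when fed, so that the fed mice here are not the usual low-fat reference.

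The libraries were made from the 3′ ends of transcripts, and reads were counted per gene. Between 2471773 and 4292200 reads were counted per mouse. Levels are given as counts per 1000000 counted reads (CPM), normalized between mice, and changes as log2 fold changes of fasted over fed mice with their standard error (SE) from edgeR's quasi-likelihood test. A gene is said to have risen or fallen where the p-value, adjusted over all genes tested, was below 0.05. The hepatocyte list, 9 genes led by Alb, Ttr and Ahsg, summed to between 48422 and 67272 CPM in the 8 mice, with overlapping groups.

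Single libraries held RNA of other tissues. A list of 20 acinar pancreas genes, led by Cpb1, Prss2 and Ctrb1, summed to 24780.0 CPM in fasted mouse 2 and to between 17.9 and 28.5 CPM in the 7 other mice. A list of 18 skeletal muscle genes, led by Acta1, summed to 1178 CPM in fed mouse 4, to 475 CPM in fasted mouse 4 and to between 3.91 and 14 CPM in the others. The adrenal cortex list (6 genes) reached 41.1 CPM in fasted mouse 3 and at most 5.15 CPM elsewhere, and the heart list (12 genes) 46.7 CPM in fed mouse 4 and at most 25.2 CPM elsewhere. In fed mouse 4, the library with the highest skeletal muscle sum, the heart list was led by Myl3, Myl2 and Sln (16.9, 9.94 and 9.57 CPM). Myh6 was at 0.368 CPM there, and Myl7, Nppa, Mybpc3 and Ryr2 were at 0 CPM. Whether heart or skeletal muscle gave this sum was not tested. The lists of liver macrophages, stellate and endothelial cells overlapped between the groups. The cholangiocyte and gallbladder list (11 genes) did not, with 89 to 162 CPM in fasted and 69.5 to 78 CPM in fed mice, and its part in the results was not tested. This sum includes Lgals4, itself a gene that rose, at 12.1 to 25.8 CPM in fasted and 0.76 to 8.83 CPM in fed mice. Tff2 reached 61.3 CPM in fasted mouse 2 and Sox9 74.3 CPM in fasted mouse 3. Krt7, Krt19 and Muc1 were at 0 CPM in fasted mice 3 and 4, and Sox9 and Spp1 overlapped between the groups. In whole tissue, fewer cells of a type and less RNA per cell cannot be told apart.

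**Figure D1:**
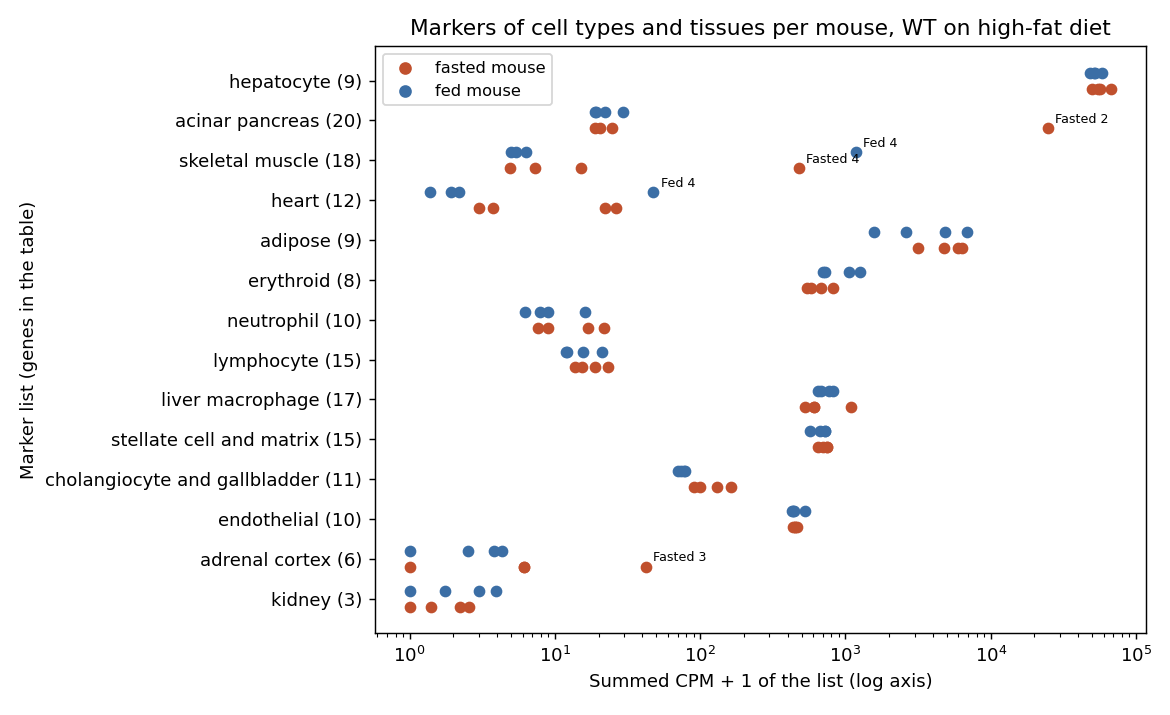
Summed CPM (plus 1, log axis) of marker lists of 14 tissues and cell types in each fasted (red) and fed (blue) mouse. Fasted mouse 2 stands apart in the acinar pancreas list at 24780.0 CPM, and fed mouse 4 and fasted mouse 4 in the skeletal muscle list at 1178 and 475 CPM.

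Fasting changed 85 of 9926 genes tested (0.856%) in these mice. The transcripts that rose, 57 genes (0.574%), included genes of fat oxidation, the fasting-induced lipase inhibitor Angptl4, the nuclear receptor Nr1i3, the clock gene Hlf and the kinase gene Pim3. The 28 genes that fell (0.282%) included Srebf1, the NADPH-producing Pgd, the transferrin receptor Tfrc and the glycogen genes Pygl and Gbe1. Most changes were modest: the median absolute log2 fold change of the 85 genes was 0.85, and 58 of them changed by less than 1 on the log2 scale. In 77 of the 85 genes the fasted and fed mice did not overlap. Among all genes tested, every fasted mouse lay above every fed mouse in 344 genes (3.47%) and below in 281 genes (2.83%), and 1135 genes had an unadjusted p below 0.05.

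The number of genes that passed turned on single mice. It was 0 without fasted mouse 3 (914 genes by edgeR before adjustment), 6 without fasted mouse 4 and 8 without fasted mouse 1. Leaving out fasted mouse 2, the library with pancreatic RNA, gave 237 genes, and leaving out fasted mouse 2 and fed mouse 4 together gave 253 genes, 145 higher and 108 lower. Without fed mouse 1, 2, 3 or 4 the number was 6, 128, 19 and 38. In 77 of the 85 genes the groups did not overlap, so that their sign in these fits was fixed by how they were chosen. With lane as a term 17 genes passed, and with age as a term 11.

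Fasted mouse 2 stood apart from the other fasted mice. Over all genes tested its levels had rank correlations of 0.952, 0.951, 0.941 and 0.937 with fed mice 1 to 4. With the other fasted mice they were 0.939 to 0.946. Fasted mouse 2 held the lowest fasted value in 49 of the 57 genes that rose and the highest fasted value in 22 of the 28 that fell. Part of the RNA of this library came from pancreas, and whether this bears on its weaker changes was not tested. Fed mouse 2 held the lowest fed value in 17 of 20 genes of fatty acid synthesis and in 22 of 24 genes of cholesterol synthesis, but also in 15 of 20 genes of mitochondrial β-oxidation and in 16 of 20 of peroxisomal and ω-oxidation. Its acinar pancreas sum was 28.5 CPM, and what set fed mouse 2 apart was not tested.

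The oxidation of fatty acids in mitochondria was the list with the most genes that rose. Of 20 genes, 8 rose and 0 fell, against 0.574% and 0.282% of all genes tested, and 10 had every fasted mouse above every fed mouse, against 3.47% of all genes. The list median was 0.50 on the log2 scale, against 0.00 over all genes. All 8 still passed without fasted mouse 2, and also without fasted mouse 2 and fed mouse 4. Without fasted mouse 1, 3 or 4, or without fed mouse 1, none of them did, although the list median stayed between 0.40 and 0.60 with any one mouse left out.

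Entry of long-chain acyl groups into mitochondria runs through Cpt1a, the carnitine palmitoyltransferase of the outer membrane. Cpt1a (chr19:3322334-3385733 of GRCm38) was at 492, 275, 564 and 511 CPM in fasted mice 1 to 4 and at 246, 177, 260.0 and 279 CPM in fed mice 1 to 4. Fasted mouse 2 lay just below the highest fed mouse, and the 3 other fasted mice lay above all fed mice. The log2 fold change was 0.94 ± 0.20 (SE, adjusted p = 0.0333). Slc25a20, which exchanges acylcarnitine for carnitine across the inner membrane, rose by 0.73 ± 0.15 on the log2 scale (adjusted p = 0.027) without overlap of the groups. Cpt2, which returns the acyl group to coenzyme A inside, rose by 0.82 ± 0.19 (adjusted p = 0.0419), with fasted mouse 2 at 132 CPM inside the fed range of 87.8 to 150.1 CPM.

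Acadm, the enzyme missing in the knockout mice of the series, was present in all 8 mice. It was at 681, 406, 666 and 634 CPM in the fasted and at 339, 302, 319.9 and 358 CPM in the fed mice (chr3:153922357-153944632). All fasted mice lay above all fed mice, with fasted mouse 2 nearest to them. Acadm rose by 0.86 ± 0.17 on the log2 scale (adjusted p = 0.0218).

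Further steps of the spiral rose by a similar amount. Hadhb, a subunit of the trifunctional protein, was at 107, 73.5, 138 and 105 CPM in fasted and at 56.7, 44.1, 54.3 and 68.1 CPM in fed mice (0.93 ± 0.18, adjusted p = 0.0229). Eci2, an isomerase for unsaturated acyl-CoA, was at 276, 191, 243 and 283 CPM in fasted and at 138, 123, 154 and 137 CPM in fed mice (0.85 ± 0.16, adjusted p = 0.0167). In both, the lowest fasted mouse, number 2, still lay above the highest fed mouse. Etfdh, which hands electrons of the acyl-CoA dehydrogenases to the respiratory chain, was at 223, 152, 257 and 244 CPM against 133, 123, 117 and 122 CPM (0.82 ± 0.16, adjusted p = 0.0229). Acad11, a dehydrogenase of the same family, rose by 0.74 ± 0.17 (adjusted p = 0.0336). Eci1, Acadl, Decr1 and Acaa2, chosen after their values were seen, did not pass the test (adjusted p from 0.0848 to 0.677). Their log2 fold changes were 0.63, 0.44, 0.49 and 0.20, without overlap between the groups.

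**Figure D2:**
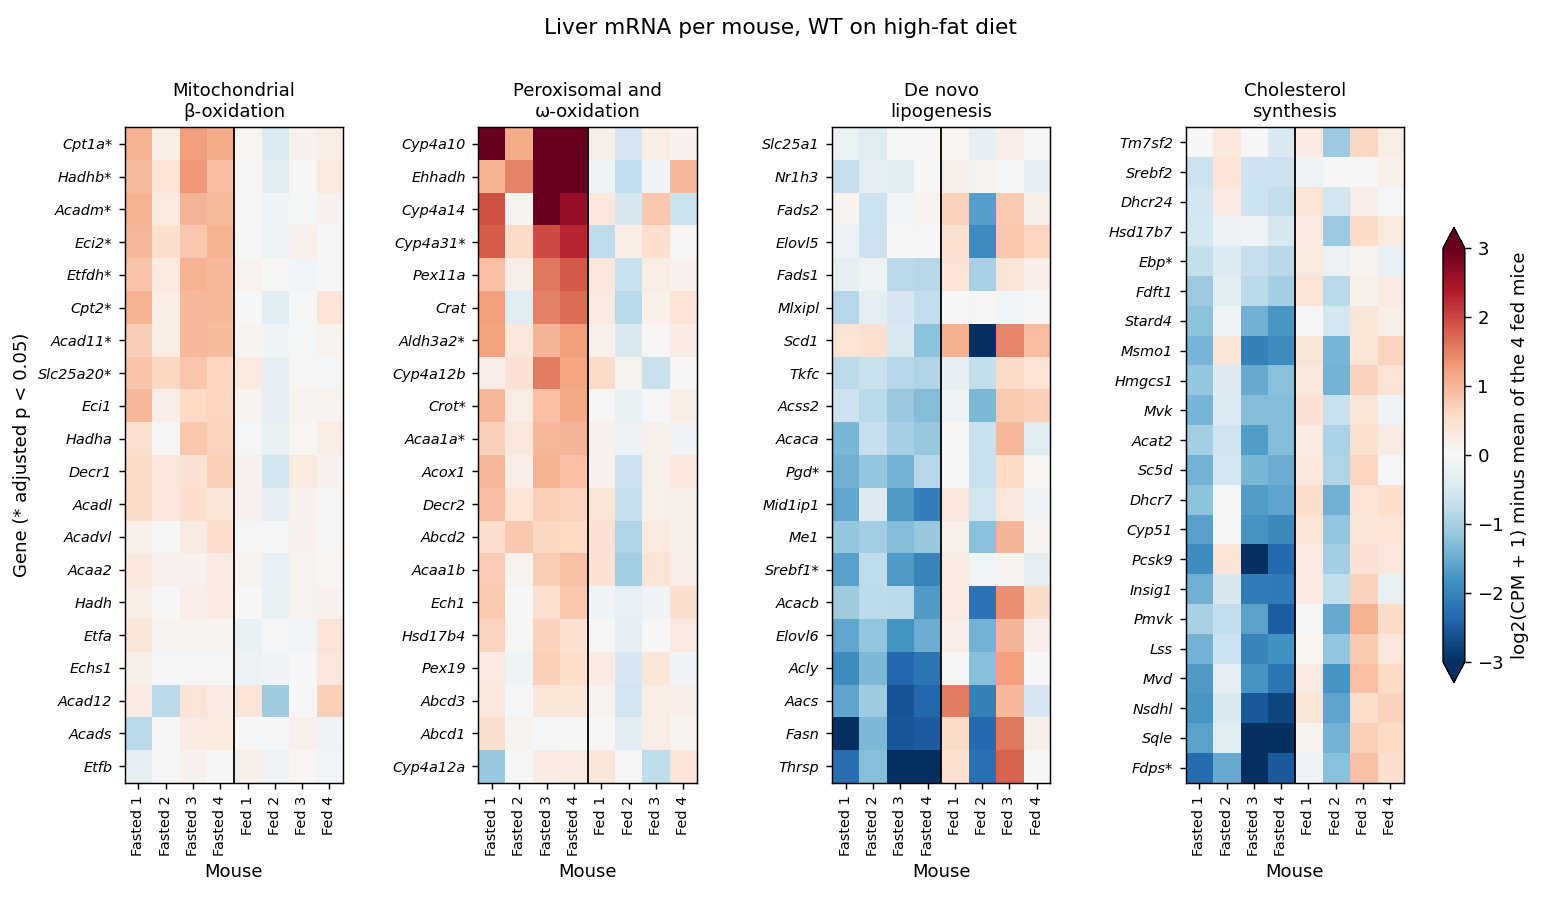
Heat map of log2(CPM + 1) minus the mean of the 4 fed mice, for tested genes of 4 lists (rows, ordered by log2 fold change) in each mouse (columns); asterisks mark adjusted p below 0.05. Oxidation genes are red in fasted mice 1, 3 and 4 and paler in fasted mouse 2, and most synthesis genes of the 2 right panels are blue in fasted mice and also in fed mouse 2.

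Peroxisomal and ω-oxidation showed larger changes that were less even between mice. Of 20 genes tested, 4 rose (against 0.574% of all genes) and 0 fell, 7 had every fasted mouse above every fed mouse (against 3.47%), and the list median was 0.78 on the log2 scale. Without fasted mouse 2 all 4 still passed, as they did without both fasted mouse 2 and fed mouse 4, and none passed without fasted mouse 1, 3 or 4 or without fed mouse 1 or 3. The largest changes belonged to genes that did not pass. Cyp4a10, a fatty acid ω-hydroxylase, was at 1923, 461, 2196 and 1774 CPM in fasted and at 240.4, 150.4, 249 and 232 CPM in fed mice. The 4 fasted mice lay above the fed mice, but fasted mouse 2 was far below the other fasted mice, and the log2 fold change of 2.86 ± 0.50 had an adjusted p of 0.067. Without fasted mouse 2 it was 3.17 (adjusted p = 4.58e-09).

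Cyp4a14, a close relative, was at 5263, 1469, 12248 and 8692 CPM in fasted and at 1729, 992, 2456 and 894 CPM in fed mice, with overlap (2.19 ± 0.70, adjusted p = 0.31). Ehhadh, the bifunctional enzyme of peroxisomes, was at 126, 173, 642 and 541 CPM in fasted and at 56.7, 36.1, 55.2 and 121 CPM in fed mice (2.46 ± 0.70, adjusted p = 0.237). Fasted mice 1 and 2 lay nearest to fed mouse 4 in this gene, and fasted mice 3 and 4 far above it. Cyp4a31 rose from 6.40 ± 2.41 CPM (SD, n = 4) in fed to 23.3 ± 10.1 CPM (SD, n = 4) in fasted mice (1.84 ± 0.36, adjusted p = 0.0229). The Cyp4a genes are near-identical in sequence, reads that fit several of them are not counted, and levels of single members are uncertain for this reason.

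The 3 other genes that rose were Aldh3a2, Acaa1a and Crot. Aldh3a2, the fatty aldehyde dehydrogenase that completes ω-oxidation, was at 695, 383, 616 and 726 CPM in fasted and at 337, 223, 311 and 357 CPM in fed mice (0.98 ± 0.19, adjusted p = 0.0229). Acaa1a, a peroxisomal thiolase, was at 199, 153, 245 and 248 CPM against 133, 107, 136 and 113 CPM (0.79 ± 0.17, adjusted p = 0.027). Neither overlapped between the groups. Crot, which moves shortened acyl groups from peroxisomes to carnitine, rose by 0.84 ± 0.18 (adjusted p = 0.0285), with fasted mouse 2 and fed mouse 4 both at 527 CPM to the nearest whole number.

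Acyl-CoA thioesterases, which release the fatty acid from coenzyme A, had a list median of 0.61 over 10 genes tested. Among them 1 gene rose and 0 fell, against 0.574% and 0.282% of all genes. That gene was Acot12, an acetyl-CoA hydrolase, at 189, 112, 151 and 143 CPM in fasted and at 77.1, 75.2, 94.7 and 88.7 CPM in fed mice (0.82 ± 0.17, adjusted p = 0.0229). Acot1 and Acot2 were higher on average but more variable. Acot1 was at 342, 114, 503 and 495 CPM against 67.5, 36.9, 58.3 and 79.5 CPM without overlap (2.59 ± 0.51, adjusted p = 0.0996). Acot2 was at 43.8, 14.1, 46.5 and 40.9 CPM against 13.2, 8.74, 21.6 and 5.52 CPM (1.56 ± 0.45, adjusted p = 0.186). Without fasted mouse 2 both passed (adjusted p = 1.76e-06 and 0.00503). The 2 genes are neighbours with similar sequence, and reads that fit both are not counted, so that their levels are uncertain.

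Uptake and activation of fatty acids changed in both directions. Of 17 genes tested 2 rose and 1 fell, against 0.574% and 0.282% of all genes, and the list median was 0.08. Acsl1, the main long-chain acyl-CoA synthetase of liver, was at 2393, 1192, 2595 and 2527 CPM in fasted and at 860.1, 737, 942 and 1167 CPM in fed mice. Fasted mouse 2 was just above fed mouse 4, and the 3 other fasted mice lay far above both. The log2 fold change was 1.23 ± 0.22 (adjusted p = 0.0212). Slc27a2, a transport protein and very-long-chain acyl-CoA synthetase, rose from 419 ± 78.9 to 698 ± 148 CPM (SD, n = 4 each, 0.74 ± 0.18, adjusted p = 0.0478), and did not pass without fasted mouse 2 and fed mouse 4 (adjusted p = 0.0528). Acsl4, which prefers arachidonate, fell from 139.6 ± 8.85 to 86.8 ± 15.5 CPM (-0.69 ± 0.15, adjusted p = 0.0353).

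Ketone body synthesis did not pass the test in any of its 8 genes. The list median was 0.29 on the log2 scale, and 6 of the 8 genes had a fold change above 0. With 1 mouse left out the number that rose was between 0 and 2. Acat1, a thiolase that joins acetyl-CoA units, was at 1078 ± 176 CPM in fasted and at 893 ± 82.8 CPM in fed mice (SD, n = 4, 0.27 ± 0.16, adjusted p = 0.549).

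Genes of lipid droplets were as a list near 0 (median 0.11). Of 23 genes 1 rose and 0 fell, against 0.574% and 0.282% of all genes. Plin4, a coat protein of droplets, was at 41.2, 14.8, 29.8 and 67.2 CPM in fasted and at 13.2, 7.98, 6.17 and 7.36 CPM in fed mice without overlap (2.15 ± 0.42, adjusted p = 0.0444). Plin2, the abundant droplet coat of liver, was at 529, 181, 479 and 566 CPM against 272, 98.8, 319.6 and 323 CPM, where fasted mouse 2 lay inside the fed range (0.79 ± 0.49, adjusted p = 0.628). Cidec, a droplet fusion protein, was at 19.2, 1.17, 27.8 and 31.4 CPM against 7.59, 0.38, 4.94 and 3.31 CPM (2.30 ± 0.93, adjusted p = 0.416). Cidea was below the minimum for testing, at up to 5.57 CPM.

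Among 21 secreted fasting signals tested, 1 rose and 0 fell, against 0.574% and 0.282% of all genes. Angptl4, an inhibitor of lipoprotein lipase induced by fasting, was at 159, 87.9, 138 and 213 CPM in fasted and at 41.9, 34.2, 58 and 57 CPM in fed mice (chr17:33773750-33781830). All fasted mice were higher than all fed mice, and the log2 fold change was 1.64 ± 0.25 (adjusted p = 0.0151). With any one mouse left out its adjusted p was at most 0.0743. Fgf21, a hormone of the fasted liver, was at 13.2, 3.91, 86.6 and 60 CPM in fasted and at 16.8, 3.04, 12 and 9.2 CPM in fed mice. It was high in fasted mice 3 and 4 alone, the 2 fasted mice of lane 8, and fasted mice 1 and 2 lay within the fed range (2.01 ± 0.99, adjusted p = 0.526).

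**Figure D3:**
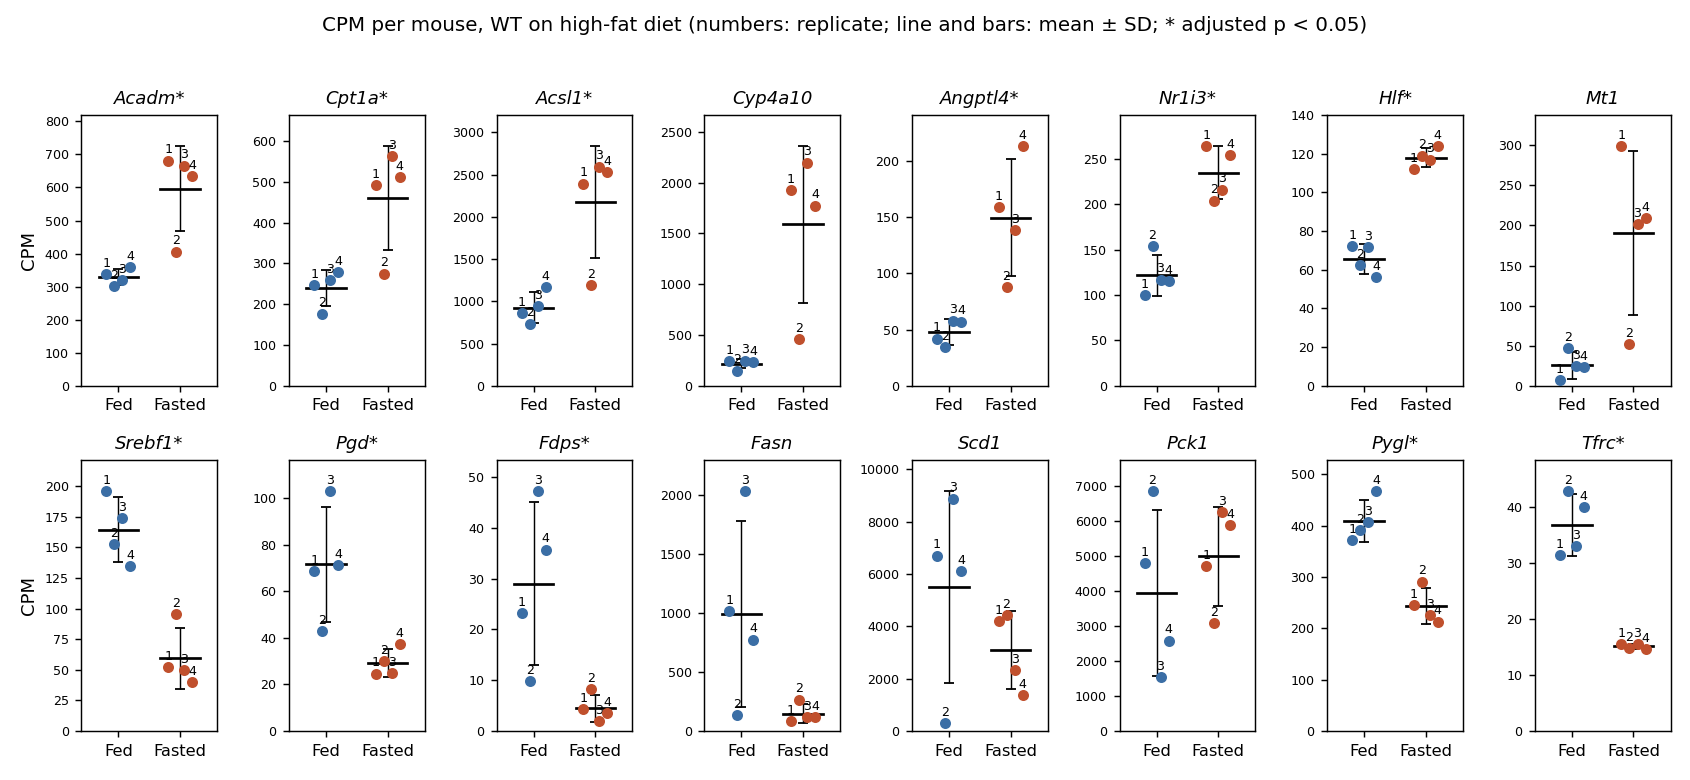
CPM of 16 genes in each of the 4 fed (blue) and 4 fasted (red) mice; numbers give the mouse, lines the mean and bars the SD, and asterisks mark adjusted p below 0.05. Fasted mouse 2 lies nearest to the fed mice in Acadm, Cyp4a10 and Mt1, and fed mouse 2 is the lowest fed mouse in Fasn, Scd1 and Fdps.

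Fatty acid synthesis was lower on average throughout the list, with few genes past the test. All 20 genes tested had a fold change below 0, against 4931 of all 9926 genes. Of the 20, 2 fell (against 0.282% of all genes) and 5 had every fasted mouse below every fed mouse (against 2.83%). The list median was -1.26 on the log2 scale. This median stayed between -1.47 and -0.93 with any one mouse left out. The number that fell was 11 without fed mouse 2, and 0 without fasted mouse 1, fasted mouse 3 or fed mouse 1. DESeq2 called 10 genes of this list lower.

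Srebf1, the gene of the transcription factor SREBP-1 and itself a member of the list, was at 52.4, 95.3, 49.6 and 39.7 CPM in fasted and at 196, 153, 174 and 135 CPM in fed mice (chr11:60199089-60222581). The groups were clearly apart, and Srebf1 fell by 1.48 on the log2 scale (SE 0.23, adjusted p = 0.0151). Pgd, which makes NADPH in the pentose phosphate pathway, was at 24.6, 30.1, 24.9 and 37.4 CPM in fasted and at 68.7, 42.9, 103 and 71.4 CPM in fed mice (-1.30 ± 0.23, adjusted p = 0.0151). Among its fed values, that of fed mouse 2 was the one closest to the fasted mice.

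The synthesis enzymes themselves varied widely among fed mice and did not pass. Fasn, the fatty acid synthase, was at 84.5, 266, 114 and 119 CPM in fasted and at 1013, 134, 2029 and 773 CPM in fed mice (-2.76 ± 0.85, adjusted p = 0.286). Fed mouse 2 lay within the fasted range and the 3 other fed mice lay far above it. Without fed mouse 2 the log2 fold change was -3.13 (adjusted p = 0.0872). Scd1, the stearoyl-CoA desaturase, was at 4208, 4441, 2341 and 1371 CPM in fasted and at 6702, 294, 8885 and 6115 CPM in fed mice (-0.83 ± 0.93, adjusted p = 0.822). Thrsp, a lipogenic regulator, was at 69.3, 137, 27.3 and 21.5 CPM in fasted and at 458, 70.3, 1137 and 335 CPM in fed mice (-2.98 ± 1.01, adjusted p = 0.336). In Scd1 and Thrsp, too, fed mouse 2 was the lowest fed mouse. Acly, Acaca and Mlxipl, chosen after their values were seen, had no overlap between the groups and did not pass. They were at -2.17, -1.21 and -0.58, with adjusted p of 0.198, 0.175 and 0.0807.

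The cholesterol list followed the same course. All 24 genes tested had a fold change below 0, against 4931 of all 9926 genes. Of the 24, 2 fell (against 0.282% of all genes) and 2 had every fasted mouse below every fed mouse (against 2.83%). The list median was -1.21, between -1.60 and -1.05 with any one mouse left out. Leaving out fasted mouse 2 raised the number that fell to 12, and leaving out fed mouse 2 raised it to 13. It was 0 with any of the 6 other mice left out, and 8 without fasted mouse 2 and fed mouse 4. Fasted mouse 2 held the highest fasted value in 23 of the 24 genes.

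Fdps, the farnesyl diphosphate synthase, was at 4.29, 8.20, 1.94 and 3.58 CPM in fasted and at 23.2, 9.88, 47.2 and 35.7 CPM in fed mice (-2.74 ± 0.52, adjusted p = 0.0375). Ebp, a sterol isomerase, was at 227, 278, 231 and 207 CPM in fasted and at 458, 329, 399.8 and 315 CPM in fed mice (-0.67 ± 0.16, adjusted p = 0.0457). In both genes the fasted mice lay below the fed mice, by little in Fdps between fasted mouse 2 and fed mouse 2. Sqle, the squalene epoxidase, was at 11.5, 28.5, 2.42 and 3.58 CPM against 40.3, 13.3, 61.4 and 57 CPM (-1.96 ± 0.84, adjusted p = 0.455). Here fasted mouse 2 lay above fed mouse 2, while the 3 other mice of each group did not overlap.

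**Figure D4:**
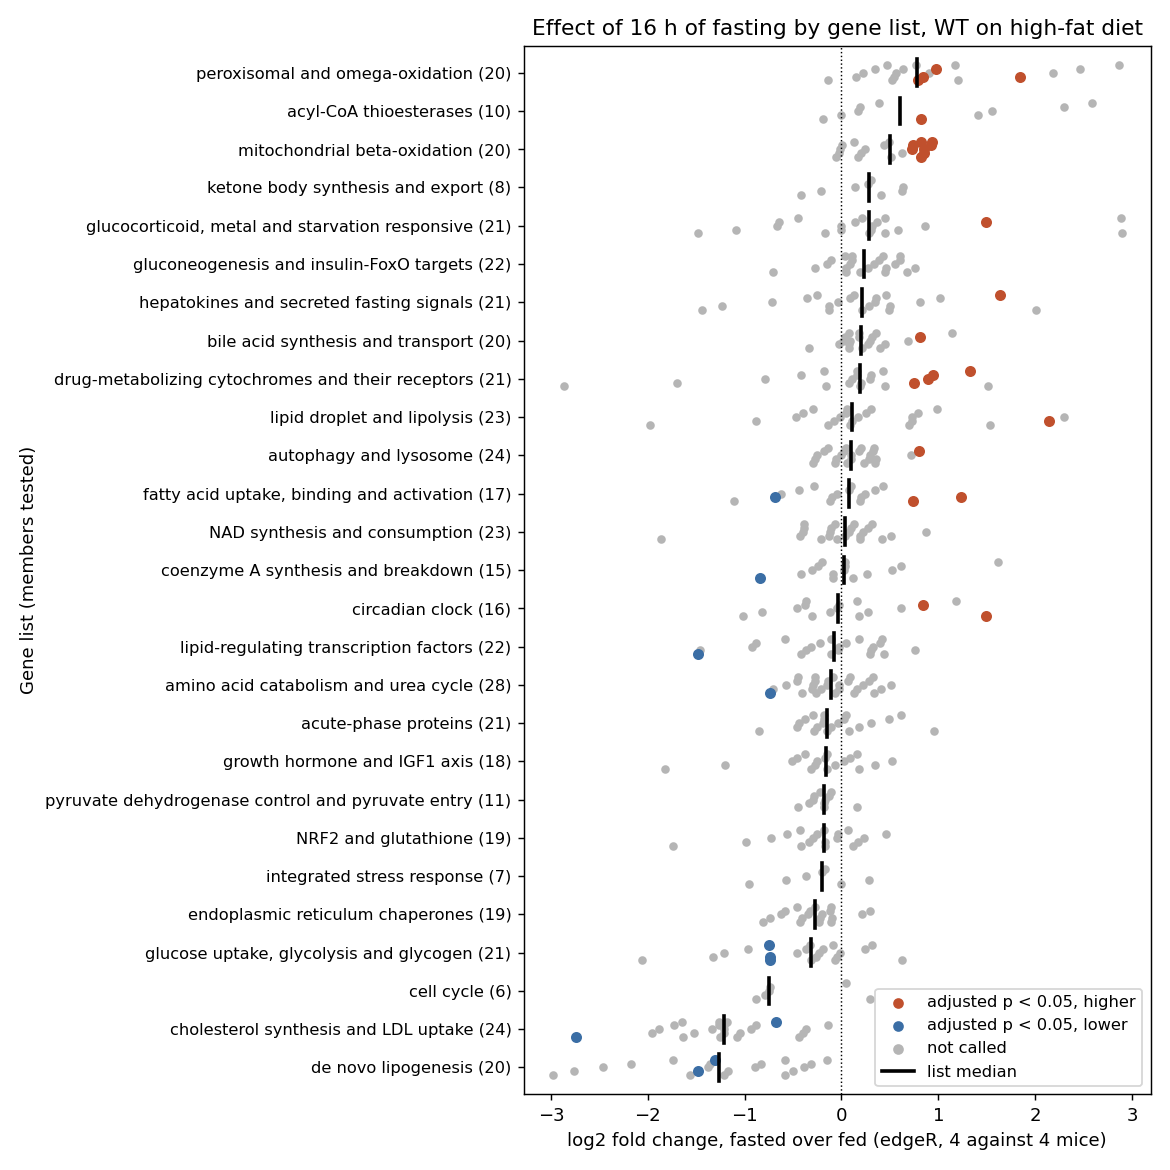
Log2 fold change (fasted over fed, x axis) of each tested gene in 27 gene lists (y axis, with the number tested), with list medians as black bars and genes past the test in red (higher) or blue (lower). Peroxisomal and ω-oxidation lies highest with a median of 0.78, and cholesterol synthesis and fatty acid synthesis lie lowest with medians of -1.21 and -1.26.

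Genes of glucose uptake, glycolysis and glycogen were mostly lower in fasted mice. Of 21 genes tested 3 fell (against 0.282% of all genes) and 0 rose, 18 had a fold change below 0, 4 had every fasted mouse below every fed mouse (against 2.83%), and the list median was -0.31. The 3 calls were kept without fasted mouse 2 or fed mouse 2 and lost without any of the 6 other mice. Pygl, the liver glycogen phosphorylase, was at 245, 291, 225 and 213 CPM in fasted and at 371, 391, 406 and 467 CPM in fed mice (-0.75 ± 0.15, adjusted p = 0.0229). Gbe1, the glycogen branching enzyme, fell from 319 ± 46.8 to 192 ± 37.4 CPM (SD, n = 4 each, -0.74 ± 0.17, adjusted p = 0.0353). Khk, the ketohexokinase that admits fructose, fell from 421 ± 90.2 to 252 ± 45.5 CPM (-0.74 ± 0.17, adjusted p = 0.0444), with fasted and fed mouse 2 both at 311 CPM to the nearest whole number. Pklr, the liver pyruvate kinase, overlapped between the groups (-1.33 ± 0.61, adjusted p = 0.493).

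None of 22 genes of gluconeogenesis and insulin-FoxO control passed in either direction by edgeR's test (list median 0.24). Pck1, the gene of cytosolic phosphoenolpyruvate carboxykinase, was at 4707, 3092, 6259.6 and 5884 CPM in fasted and at 4797, 6851, 1535 and 2579 CPM in fed mice. The highest value of all belonged to fed mouse 2, and the groups overlapped widely (0.34 ± 0.49, adjusted p = 0.863). G6pc, the glucose-6-phosphatase, was at 331 ± 65.8 CPM in fasted and at 274 ± 98.6 CPM in fed mice (SD, n = 4, 0.28 ± 0.24, adjusted p = 0.738). Ppargc1a, the coactivator PGC-1α, was at 28.3 ± 4.64 and 30.5 ± 7.02 CPM (-0.11 ± 0.21, adjusted p = 0.905), and Igfbp1, an insulin-repressed binding protein, at 93, 39.5, 156 and 165 CPM against 60.3, 111, 60.5 and 97.9 CPM (0.46 ± 0.47, adjusted p = 0.792). Pdk4, which switches off pyruvate dehydrogenase, was low in all mice, at 10.6, 2.34, 10.2 and 25 CPM against 8.78, 2.28, 12.3 and 28.7 CPM (-0.13 ± 0.82, adjusted p = 0.974). Its sign turned when fasted mouse 2 (0.19) or fed mouse 4 (0.59) was left out.

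Amino acid breakdown and the urea cycle had 1 gene of 28 that fell and 0 that rose, against 0.282% and 0.574% of all genes (median -0.11). Gls2, the liver glutaminase, was at 329, 217, 203 and 179 CPM in fasted and at 408, 440.0, 350.1 and 353 CPM in fed mice (-0.74 ± 0.18, adjusted p = 0.0473). Gls2 did not pass without fasted mouse 2 and fed mouse 4 (adjusted p = 0.0781), and with 1 mouse left out it passed only without fasted mouse 1. Of 15 genes of coenzyme A synthesis and breakdown 1 fell and 0 rose, against the same shares of all genes (median 0.03). Nudt7, a peroxisomal hydrolase of coenzyme A, was at 401, 570.4, 470.2 and 466 CPM in fasted and at 1027, 826, 872 and 702 CPM in fed mice, which did not overlap (-0.85 ± 0.16, adjusted p = 0.0212). Of 23 genes of NAD synthesis and use none passed (median 0.03), and the most abundant ones, Tdo2 and Kmo, had log2 fold changes of 0.13 ± 0.16 and 0.03 ± 0.14. The 11 genes of pyruvate dehydrogenase control and pyruvate entry did not pass either (median -0.18), with Mpc2 at 0.16 ± 0.16 and Pdhb at -0.34 ± 0.15.

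The drug-metabolizing cytochromes and their receptors had 4 genes of 21 that rose and 0 that fell, against 0.574% and 0.282% of all genes (median 0.19). All 4 still passed without fasted mouse 2 or without fed mouse 2, and none without fasted mouse 3, fasted mouse 4 or fed mouse 1. Without fasted mouse 1 or without fed mouse 3, 1 passed, and without fed mouse 4, 2 passed. Nr1i3, the nuclear receptor CAR, was at 264, 204, 216 and 254 CPM in fasted and at 100.2, 154, 117 and 115 CPM in fed mice (0.95 ± 0.16, adjusted p = 0.0151). Por, the reductase that supplies electrons to microsomal cytochromes P450, was at 151, 61.3, 115 and 129 CPM against 45.1, 50.5, 34.9 and 52.3 CPM (1.33 ± 0.23, adjusted p = 0.0212). Cyp2e1, which oxidizes ethanol and ketones, was at 6137, 3648, 4909 and 4666 CPM against 2520.4, 3317, 1984 and 2584 CPM (0.90 ± 0.18, adjusted p = 0.0245). In each of the 3 the fasted mice lay above the fed mice, with fasted mouse 2 lowest among them. Cyp3a25 rose from 547 ± 36.5 to 918 ± 177 CPM (SD, n = 4 each, 0.75 ± 0.16, adjusted p = 0.0301). Of 20 bile acid genes 1 rose and 0 fell, against 0.574% and 0.282% of all genes (median 0.20). Abcb4, the canalicular phospholipid pump, was at 281, 169, 281 and 279 CPM against 129, 129, 151 and 166 CPM (0.81 ± 0.17, adjusted p = 0.027). Cyp7a1, the rate-limiting enzyme of bile acid synthesis, was at 127, 150.4, 51.1 and 104 CPM against 73.1, 67.6, 19.1 and 36.8 CPM (1.14 ± 0.51, adjusted p = 0.472).

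The metallothioneins, small metal-binding proteins induced by glucocorticoids and zinc, were among the largest changes that did not pass. Mt1 was at 299, 52, 202 and 209 CPM in fasted and at 6.79, 47.1, 25 and 23.2 CPM in fed mice (2.90 ± 0.71, adjusted p = 0.184). Mt2 was at 119.7, 32.4, 100.2 and 145 CPM against 3.19, 25.5, 8.95 and 16.2 CPM (2.89 ± 0.68, adjusted p = 0.167). The groups did not overlap, but fasted mouse 2 and fed mouse 2 nearly met. Without fasted mouse 2 both passed (adjusted p = 0.0485 and 0.0322). In their list of 21 tested genes 1 rose and 0 fell, against 0.574% and 0.282% of all genes (median 0.28).

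The gene that rose there was Per1, a clock gene that glucocorticoids also induce. Per1 was at 12, 14.1, 11.4 and 15.9 CPM in fasted and at 3.59, 7.60, 4.63 and 2.94 CPM in fed mice (1.49 ± 0.35, adjusted p = 0.0419). Per1 did not pass without fasted mouse 2 and fed mouse 4 (1.30, adjusted p = 0.086), and with 1 mouse left out it passed only without fasted mouse 2 or without fed mouse 2. Hlf, a transcription factor under clock control, was at 112, 119, 117 and 124 CPM against 72.3, 62.3, 71.9 and 56.3 CPM (0.85 ± 0.15, adjusted p = 0.0151). Both had no overlap, and Hlf had narrow groups in which fasted mouse 2 did not stand apart. Of 16 clock genes tested 2 rose and 0 fell, against 0.574% and 0.282% of all genes (median -0.04). According to the methods, all mice were killed in the same hours of the morning. The hour of each mouse is not in the labels, and its part in these values was not tested.

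The promoters of these 2 clock genes, from RefSeq on GRCm38.p6, are shown because they rose together and each holds one of 2 short elements searched for on both strands, the E-box CACGTG, bound by clock proteins, and the cyclic AMP response element TGACGTCA (capitals). Each window runs from 250 bases before to 50 bases after the start of transcription, the first of 2 Per1 windows is given, and these promoters were picked after the search (chr11:69098699-69098998, plus strand; Hlf at chr11:90390868-90391167, minus strand).
Per1: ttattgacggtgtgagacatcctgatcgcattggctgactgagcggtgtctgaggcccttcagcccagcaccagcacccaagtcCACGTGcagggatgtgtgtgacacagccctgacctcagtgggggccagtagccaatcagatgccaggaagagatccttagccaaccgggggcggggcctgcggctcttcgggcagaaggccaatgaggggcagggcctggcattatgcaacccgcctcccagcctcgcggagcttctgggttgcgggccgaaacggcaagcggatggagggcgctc
Hlf: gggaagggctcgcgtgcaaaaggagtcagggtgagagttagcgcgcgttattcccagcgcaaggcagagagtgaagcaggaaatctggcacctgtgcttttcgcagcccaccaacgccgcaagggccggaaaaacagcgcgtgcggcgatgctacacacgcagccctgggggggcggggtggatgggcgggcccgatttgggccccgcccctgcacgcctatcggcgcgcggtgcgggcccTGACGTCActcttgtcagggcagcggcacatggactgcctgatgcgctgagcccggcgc

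An E-box was found in 7.15% of 32851 promoter windows and the cyclic AMP response element in 1.79%. Of 50 genes that rose and had a window, 6 held an E-box and 1 the cyclic AMP response element, and of 24 genes that fell 3 and 0. The core of the metal response element (TGCACNC or TGCGCNC) was found in 20 of the 50 and 12 of the 24 genes, against 25.7% of all windows. A sterol element (TCACNCCAC, 1.24% of windows) was found in 1 of the 50, Acsl1, and in 2 of the 24, Ampd2 and Camk1d. The DR1 element in its perfect form, a direct repeat such as PPARα binds (0.0396% of windows), was found in 0 of either set. A match of letters does not show that the site is used, several genes have more than 1 window, and the shares of all windows are per window, not per gene.

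Outside the lists, the genes with the smallest p among those that rose included Inca1, Pim3, Ifit1, Hsdl2, Mat2a, Sun2 and Pcsk4. None of them overlapped between the groups, which the rule that chose them required. Inca1, an inhibitor of cyclin-dependent kinase, was at 40.1, 16, 26.1 and 25.4 CPM in fasted and at 10.8, 6.84, 5.86 and 7.36 CPM in fed mice (1.82 ± 0.30, adjusted p = 0.0151). Pim3, a serine kinase, was at 135, 121, 181 and 204 CPM against 71.9, 101, 71.3 and 68.8 CPM (1.03 ± 0.18, adjusted p = 0.0151). Ifit1, an interferon-induced protein, was at 54.4, 29.7, 39.7 and 58.8 CPM against 15.2, 12.9, 9.56 and 23.9 CPM (1.57 ± 0.27, adjusted p = 0.0151). The remaining 4 genes rose by between 0.86 and 1.81 on the log2 scale. Mat2a, the methionine adenosyltransferase of extrahepatic tissues, rose from 76.5 ± 11.6 to 139 ± 25 CPM (SD, n = 4 each, 0.86 ± 0.17, adjusted p = 0.0213).

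The gene that fell with one of the smallest p-values was Tfrc, the transferrin receptor for iron uptake. It was at 15.5, 14.8, 15.5 and 14.7 CPM in fasted and at 31.5, 42.9, 33 and 40.1 CPM in fed mice (chr16:32608920-32632794). The 4 fasted mice were almost equal, and all lay below the lowest fed mouse, as the rule that chose this gene required (-1.28 ± 0.21, adjusted p = 0.0151). Camk1d, a calcium-dependent kinase, was at 85.6, 125, 113 and 114 CPM against 208, 177, 222 and 224 CPM (-0.93 ± 0.15, adjusted p = 0.0151). Ampd2, an AMP deaminase, was at 24.3, 20.7, 28.1 and 20.3 CPM against 50.7, 59.6, 41.3 and 43.8 CPM (-1.05 ± 0.20, adjusted p = 0.0167). With any one mouse left out, the adjusted p of Tfrc and of Camk1d was at most 0.0546. Tuba4a, an α-tubulin, Slc25a44, a carrier of branched-chain amino acids into mitochondria, Ostc, a subunit of the complex that glycosylates new proteins, and Tars, the threonyl-tRNA synthetase, fell by 1.06, 0.98, 0.88 and 0.73 on the log2 scale.

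Several stress lists showed no gene past edgeR's test. Of 19 chaperones of the endoplasmic reticulum none passed, but 17 had a fold change below 0, and 5 had every fasted mouse below every fed mouse, against 2.83% of all genes (median -0.27). Hspa5, the chaperone BiP, was at 1056, 1943, 2339 and 1749 CPM in fasted and at 3228, 2795, 2403 and 2522 CPM in fed mice (-0.63 ± 0.20, adjusted p = 0.169). Atf4, the regulator of the integrated stress response, was at 94.9 ± 17.6 CPM in fasted and at 141 ± 28.5 CPM in fed mice (SD, n = 4, -0.57 ± 0.17, adjusted p = 0.136). The acute-phase list (21 genes, median -0.15), the NRF2 and glutathione list (19, -0.18), the integrated stress response (7, -0.20) and the growth hormone and IGF1 list (18, -0.16) held no gene that passed either, and Igf1 itself was at 861 ± 100.4 CPM in fasted and at 847 ± 90.7 CPM in fed mice. Cell cycle genes were mostly too low to test (6 of 19 tested). Bnip3, a receptor for the removal of mitochondria, was the one gene of 24 of autophagy and lysosome that rose, from 122 ± 18 to 211 ± 42.1 CPM (0.80 ± 0.17, adjusted p = 0.0268). None of the 24 fell, and over all genes 0.574% rose and 0.282% fell.

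The fasting effect on the high-fat diet was then compared with that of WT mice on the low-fat diet, 4 fasted and 4 fed mice of their own, in one model of 16 mice. In that model 23 of 10798 genes (0.213%) changed with fasting on the high-fat and 1004 (9.3%) on the low-fat diet. These counts are no test of a difference. The difference of the 2 fasting effects passed in 4 genes (0.037%), Acnat2, Mat1a, Glt1d1 and Epb41, while 864 genes had p below 0.05 before adjustment. Fed mice on the low-fat diet were all on lane 8. With lane as a term, Acnat2 and Mat1a passed and Glt1d1 and Epb41 did not (adjusted p = 0.0581 and 0.0984). Without high-fat fasted mouse 2 and high-fat fed mouse 4, these last genes did not pass either (adjusted p = 0.131 and 0.192).

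Acnat2, of a family of acyltransferases that conjugate fatty acids with amino acids, had fold changes of opposite sign on the 2 diets, of which the low-fat one passed. On the high-fat diet Acnat2 was at 50.6, 45.4, 33.2 and 23.5 CPM in fasted and at 57, 74.5, 68.5 and 66.1 CPM in fed mice (-0.80 ± 0.23, adjusted p = 0.147). Low-fat mice had 62.6, 48.7, 49.3 and 35.4 CPM when fasted and 8.20, 15.2, 14.1 and 19.2 CPM when fed (1.80 ± 0.25, adjusted p = 4.17e-05). Fed mice on the low-fat diet were thus lower than all others. The difference of the 2 effects was -2.59 ± 0.34 (adjusted p = 0.000465), and it passed with any one of the 16 mice left out.

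Mat1a, the methionine adenosyltransferase of liver, was at 5265 ± 1445 CPM in high-fat fasted and at 3514 ± 331 CPM in high-fat fed mice (SD, n = 4, 0.58 ± 0.22). On the low-fat diet it was at 15936 ± 4907 CPM in fasted and 2079 ± 233 CPM in fed mice (2.94 ± 0.24). The difference was -2.35 ± 0.32 (adjusted p = 0.000465) and also held with any one mouse left out. Glt1d1, a glycosyltransferase domain protein, and Epb41, the membrane skeleton protein 4.1, had log2 fold changes of -0.15 ± 0.26 and 0.06 ± 0.16 on the high-fat and on the low-fat diet Glt1d1 was at 1.997 ± 0.27 and Epb41 at 1.26 ± 0.16. Their differences (-2.15 and -1.20, adjusted p = 0.0232 and 0.0468) passed in 6 and 3 of the 16 fits that left out 1 mouse.

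**Figure D5:**
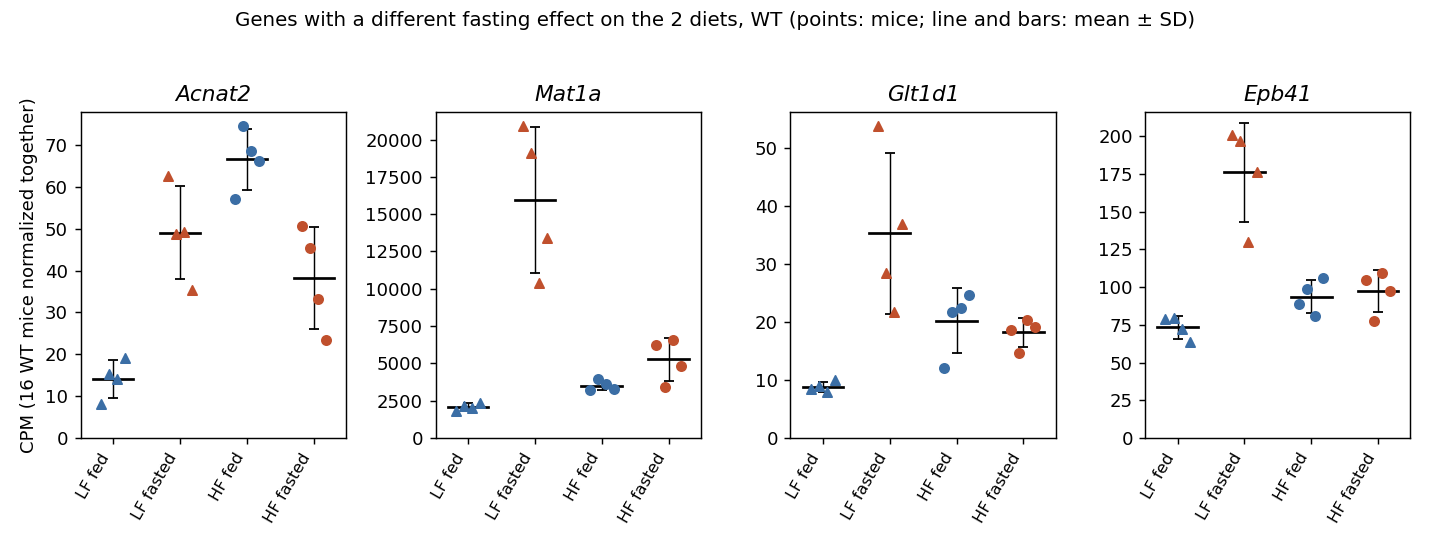
CPM of Acnat2, Mat1a, Glt1d1 and Epb41 in the 16 WT mice, fed (blue) or fasted (red), on the low-fat (LF, triangles) or high-fat (HF, circles) diet, with mean and SD. In Mat1a the low-fat fasted mice lie between 10365 and 20877 CPM and the high-fat fasted mice between 3421 and 6596 CPM.

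For the lists, the medians of the 2 effects in this model were set side by side. Mitochondrial β-oxidation had medians of 0.50 on the high-fat and 0.86 on the low-fat diet, peroxisomal and ω-oxidation 0.79 and 1.44, fatty acid synthesis -1.21 and -1.67, cholesterol synthesis -1.21 and -2.36, gluconeogenesis 0.23 and 0.88, and amino acid breakdown -0.11 and 0.69. With all 16 mice no gene of these lists passed the test of the difference (0.037% of all genes did), but this turned on single mice. Without low-fat fasted mouse 3, 44 genes passed, 17 of them in the 27 lists, among them Tdo2 and Bnip3. Without low-fat fed mouse 2, 33 genes passed, 15 of them in the lists, among them Nr1i3, Nudt7 and, again, Tdo2 and Bnip3. Low-fat fed mouse 2 stood apart from the other low-fat fed mice, with Ccnd1, a cyclin, at 625 CPM against 36.3 to 65.3 CPM and Khk at 96.8 CPM against 435 to 559 CPM. Pck1 had a log2 fold change of 0.33 ± 0.38 on the high-fat and 2.05 ± 0.39 on the low-fat diet (difference -1.71 ± 0.54, adjusted p = 0.382), and Cyp4a10 of 2.86 ± 0.40 and 5.33 ± 0.45 (difference -2.47 ± 0.53, adjusted p = 0.123). Without high-fat fasted mouse 2 the difference in Cyp4a10 passed (adjusted p = 0.00505).

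The same comparison with Acadm knockout mice on the high-fat diet, over 15 mice, found 0 of 11026 genes (0%) with a different fasting effect by edgeR. Before adjustment 524 genes had p below 0.05. DESeq2 also gave 0 genes, and 599 before adjustment. Knockout fasted mouse 4 was left out, since its heart list summed to 34926 CPM of all counted reads, against at most 18 in the 3 other knockout fasted mice. The count was 0 with it as well. List medians of WT and knockout mice were 0.50 and 0.45 in mitochondrial β-oxidation, 0.78 and 0.82 in peroxisomal and ω-oxidation, -1.22 and -1.09 in fatty acid synthesis, and -1.22 and -1.23 in cholesterol synthesis. The acute-phase and endoplasmic reticulum chaperone lists had medians of opposite sign, -0.16 in WT and 0.46 in knockout mice for the former and -0.28 and 0.16 for the latter, with no gene of either past the test of the difference. Mt1 had log2 fold changes of 2.89 ± 0.81 in WT and 4.33 ± 0.87 in knockout mice (difference -1.44, adjusted p = 0.964).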

How the data were processed

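The authors isolated total RNA from liver, made 3′ mRNA libraries (Lexogen QuantSeq), aligned reads with HISAT 0.1.5 to GRCm38 and counted them per gene with HTSeq 0.6.1p1. The deposited values are raw counts for 20076 genes, without normalization, and reads that fit several genes are not counted by HTSeq's default. The annotation release differs between the methods and the deposited table, and so does the number of libraries per lane between the methods and the labels. Symbols were found for 19913 identifiers. The other 163 held 0.125% of the counts, and 0 columns belonged to no sample. Depth was 2471773 to 4292200 counts per mouse. Counting error is one part only of the spread between mice, against which the test sets the difference of the groups.

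Counts were tested with edgeR 4.0.16 in R 4.3.3 (TMM scaling, filterByExpr on the groups, robust quasi-likelihood F test, two-sided, Benjamini-Hochberg over all genes tested), with the 8 mice alone for the fasting effect and with 16 or 15 mice for the interactions. CPM values were computed from the deposited counts with TMM library sizes. The scripts were tested on simulated data. Alternatives were DESeq2 1.42.0, limma 3.58.1 with voom, other scalings and filters, lane, age or replicate number as terms, larger models, and each mouse left out in turn. Fasted and fed mice of the same number were not paired by the labels, and correlations of their deviations lay between -0.0812 and 0.0267.

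The groups, the 27 gene lists, the 14 marker lists and the rule for named genes were chosen with earlier results of these data known. Named were a set of 33 fasting genes, up to 4 changed genes per list and direction (or the 2 most abundant where none changed), up to 15 further changed genes per direction by p without overlap and outside the marker lists, and up to 8 genes per interaction. Members of marker lists were named as markers. Slc25a20, Cpt2, Acad11, Eci1, Acadl, Decr1, Acaa2, Acly, Acaca, Mlxipl and the genes of the closing section were chosen after their values were seen. Some genes are not reported here and were left out of the figures and of the search for mice far from their group, while list counts and medians include them.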

Additional observations from a re-analysis of the deposited data

Results flagged for a closer look

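Among 220 groups of 4 values, 14 held a mouse far from the 3 others of its group by Dixon's criterion, which chance alone meets in about 1 of 20 groups.

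Fasted mouse 2 stood apart in 4 of them. Acsl1 was at 1192 CPM, against 2393 to 2595 CPM in the other fasted mice, Acot2 at 14.1 against 40.9 to 46.5 CPM and Abcb4 at 169 against 279 to 281 CPM. The acinar pancreas list summed to 24780.0 CPM in the same library.

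Fed mouse 1 was high in Igf1 (983 CPM, others 796 to 807) and low in Cyp2d9 (623 CPM, others 787 to 803). Fed mouse 2 was high in Pim3 (101 CPM, others 68.8 to 71.9), and fasted mouse 1 low in Hsp90b1 (524 CPM, others 819 to 878). Of the marker lists, skeletal muscle reached 475 CPM in fasted mouse 4 and 1178 CPM in fed mouse 4, heart 46.7 CPM in fed mouse 4, liver macrophage 1097 CPM in fasted mouse 4, endothelial 523 CPM in fed mouse 3 and adrenal cortex 41.1 CPM in fasted mouse 3.

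The fasting effect differed between the high-fat and the low-fat diet by edgeR's test of the difference in Acnat2 (-2.59 on the log2 scale), Mat1a (-2.35), Glt1d1 (-2.15) and Epb41 (-1.20).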

How the results depend on the processing

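Without one mouse the number of genes changed by fasting ranged from 0 to 237 (0 to 137 higher, 0 to 100 lower), and that of genes whose effect differed between diets from 2 to 44. The number changed by fasting was 198 with DESeq2 (101 higher, 97 lower), 322 without a filter on low counts (176 and 146), 253 without fasted mouse 2 and fed mouse 4 (145 and 108), 55 with limma voom (35 and 20), 27 in a model of 8 groups (17 and 10), 23 in a model of the 4 WT groups (18 and 5), 17 with lane (11 and 6) and 11 with age as a term (9 and 2). For the difference between diets it was 65 with DESeq2 and 23 without the filter. The cause was not tested.

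With the replicate number as a block, 71 genes passed (54 higher, 17 lower), of which 48 were among the 85, and the difference between diets passed in 3 genes, without Glt1d1 and Epb41 (adjusted p = 0.0589 and 0.0846). The numbers do not pair these mice.

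Some genes near 0 changed sign. Without fasted mouse 2 and fed mouse 4, Pdk4 was at 0.912, Fbp1 at 0.0343, Fgg at 0.0448 and Glt1d1 at 0.0451. With age as a term, Igf1 was at -0.0235, Gpx1 at 0.00136, Pcna at -0.275 and Epb41 at -0.0074, and with the block Pcna was at -0.0193. With one mouse left out the log2 fold change ranged from -0.715 to 0.589 in Pdk4, from -0.215 to 0.0245 in Ppargc1a, from -0.0485 to 0.107 in Igf1, from -0.0276 to 0.112 in Kmo, from -0.143 to 0.0719 in Gpx1, from -0.116 to 0.0345 in Fgg, from -0.00286 to 0.618 in Ccnd1, from -0.153 to 0.236 in Pcna and from -0.00567 to 0.152 in Epb41. The count for genotype was 0 in all settings run, and no other named gene changed sign.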

Other observations

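Further genes changed by fasting, chosen after their values were seen, lay outside the groups described. Retsat, which saturates retinol, was at 893, 387, 917 and 1023 CPM in fasted and at 283, 269, 388 and 268 CPM in fed mice, so that fasted mouse 2 met the highest fed mouse (1.41 ± 0.26, SE, adjusted p = 0.0287 by edgeR). Slc22a5, the carnitine transporter of the cell membrane, was at 19.8, 8.20, 15 and 16.3 CPM against 5.19, 4.56, 7.09 and 5.89 CPM without overlap (1.38 ± 0.33, adjusted p = 0.0473). Cirbp, a cold-inducible RNA-binding protein, was at 26.6, 27.3, 31.2 and 27 CPM against 12.4, 14.1, 15.7 and 9.94 CPM (1.10 ± 0.23, adjusted p = 0.0245). Lrg1, a secreted glycoprotein, rose from a mean of 412 to 673 CPM without overlap (0.71 ± 0.16, adjusted p = 0.0419).

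Lgals4, a galectin of the cholangiocyte and gallbladder list, was at 19.8, 12.1, 23 and 25.8 CPM in fasted and at 4.39, 0.76, 6.17 and 8.83 CPM in fed mice (1.98 ± 0.42, adjusted p = 0.0342). Parp9 and Lgals3bp, both induced by interferon like Ifit1, rose by 0.79 and 0.75 on the log2 scale without overlap. Cish, a target of growth hormone signalling, was at 14.6, 16.4, 8.95 and 13.1 CPM against 20, 88.1, 53.4 and 24.3 CPM and did not pass (-1.82 ± 0.49, adjusted p = 0.176).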
